A study of Mus musculus with 11 samples.

Results

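The glucocorticoid receptor and a group of genes around it were followed in 3T3-L1 adipocytes, a mouse fibroblast line differentiated into fat cells in culture. The 8 genes were Nr3c1, Nr3c2, Hsd11b1, Fkbp5, Tsc22d3, Sgk1, Errfi1 and Zbtb16. Every probe set (a group of short probes for 1 transcript region) that the platform annotation pairs with exactly 1 of these symbols was taken, which gave 21 of the 45101 probe sets of the array. The 8 genes are among 18193 genes that have a probe set with 1 symbol.

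The study compared 3 culture models of insulin resistance on 11 Affymetrix arrays, with 1 array per sample. Control adipocytes (n = 3) are labelled as untreated. The CI group (n = 2), a model of chronic high insulin, received 10 nM insulin in 4 additions spread over a day and the next morning. The TNF group (n = 3), a model of low-grade inflammation, was kept in 2 ng/ml TNFα for 4 days. The DEX group (n = 3) was kept for 8 days in 20 nM dexamethasone, a synthetic glucocorticoid, in 0.01% ethanol. The timing was set so that all cells were equally long past differentiation at harvest. The protocol names the ethanol carrier as the control for dexamethasone, and whether the untreated arrays received it is unclear. Replicates are described as experimental, with no word on separate cultures, and the p-values rest on array-to-array spread within groups that may be purely technical. The number of arrays, lowest in CI, limits the precision.

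Glucocorticoids enter the cell and bind the receptor encoded by Nr3c1, which is held ready by heat shock proteins and immunophilins and then moves to the nucleus. There it raises many genes through DNA elements built of paired AGAACA hexamers and lowers others, inflammatory genes among them. Some of the genes it raises act back on the pathway: FKBP51, the product of Fkbp5, lowers the receptor's affinity for hormone, and GILZ, the product of Tsc22d3, binds inflammatory transcription factors. In adipocytes this pathway is known for effects on fat cell differentiation, lipid storage and insulin action.

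Promoter sequence was read for 6 of the 8 genes, as 14 windows that run from 250 bases before an annotated start to 50 bases after it (RefSeq, GRCm38.p6). Nr3c1 was left out of this reading, and Zbtb16 had no window. Both strands were searched for the paired element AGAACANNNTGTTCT and for its hexamer AGAACA, which is contained in the paired element and reads TGTTCT on the other strand. The paired element was found in 1 of the 14 windows, and in 3 of 32851 windows of that length over all genes (0.00913%). That window belongs to Sgk1, which has 6 annotated starts, and the array values do not tell these starts apart. It is shown because it holds the only paired match among the 14 windows. The capitals mark the element, whose bases lie 189 to 175 before the start, on chr10:21993640-21993889 (plus strand).

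Sgk1: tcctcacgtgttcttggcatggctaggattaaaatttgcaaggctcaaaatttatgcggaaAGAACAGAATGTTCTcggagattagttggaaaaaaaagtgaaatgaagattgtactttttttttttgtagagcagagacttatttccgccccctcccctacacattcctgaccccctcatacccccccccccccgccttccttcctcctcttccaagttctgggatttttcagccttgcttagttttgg

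The hexamer was found in 4 of the 14 windows, 3 of Sgk1 and 1 of Tsc22d3, and in 6233 of the 32851 windows (19%). A hexamer of another Sgk1 start (chr10:21881977-21882006, plus strand) and that of Tsc22d3 (chrX:140600690-140600719, minus strand) are shown for comparison with the paired element, each in capitals as it reads in the direction of the gene.

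Sgk1, other start: aagggaatccgtTGTTCTgtgttttctgtg
Tsc22d3: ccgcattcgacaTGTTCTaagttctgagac

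In both short stretches the capitals read TGTTCT, and the partner AGAACA does not stand 3 bases before it as it does in the first window. These matches describe the letters of the windows and are no measure of receptor binding.

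The 3 treatments left different marks on these genes. Dexamethasone raised Fkbp5, Errfi1, Tsc22d3, Sgk1 and Zbtb16 between 3.16-fold and 6.56-fold, and lowered the receptor gene Nr3c1 and the steroid-activating enzyme gene Hsd11b1. TNF lowered Hsd11b1 by about as much while the 5 genes that dexamethasone raised differed from control by at most 0.22 on the log2 scale. Insulin raised Errfi1 and lowered Nr3c2 and Zbtb16, and its calls for Zbtb16 and of a rise in Hsd11b1 hung on single arrays. Differences are on the scale of log2(intensity + 16), and a gene was called at a Benjamini-Hochberg adjusted p under 0.05 in a limma fit of all 11 arrays. A gene's values are those of its brightest probe set unless another is named.

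**Figure D1:**
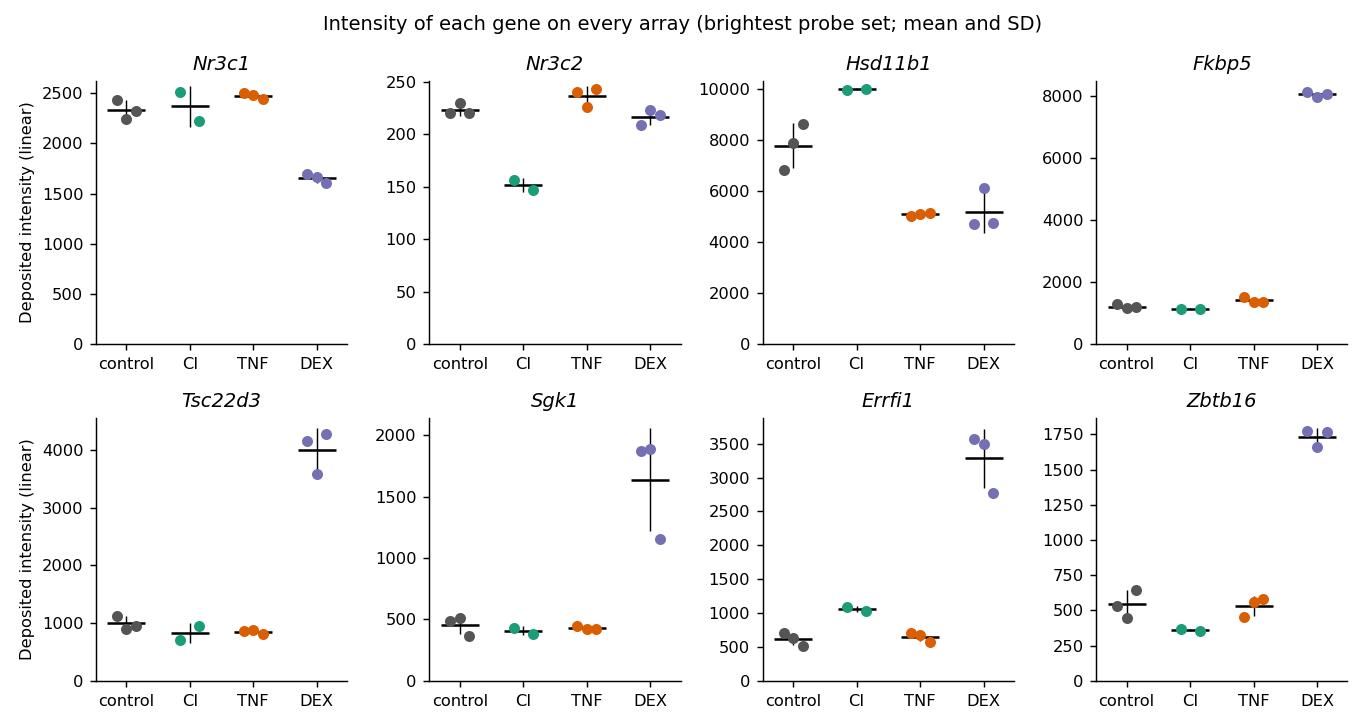
Deposited intensity (linear, vertical axes from 0) of the 8 genes on each array by group, with 1 point per array, the group mean as a horizontal line and the SD as a vertical line. Fkbp5, Tsc22d3, Sgk1, Errfi1 and Zbtb16 are highest on the 3 DEX arrays, Nr3c1 is lowest there, Nr3c2 is lowest on the 2 CI arrays, and Hsd11b1 is lower on the TNF and DEX arrays than on the control arrays.

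Of the 21 probe sets, 20 passed the filter on dim values (a mean intensity of at least 51.8). The probe set that did not was 1447736_at of Fkbp5, at 9.62 to 12.1 on all arrays. In DEX against control, 16 of the 20 were called, 11 higher and 5 lower, beside 22.2% of all 33778 probe sets tested (11.3% higher and 10.9% lower). The DEX and control arrays did not overlap for 16 of the 20, beside 36.9% of all probe sets. In CI against control 6 were called, 3 in each direction, beside 12.9% of all probe sets (6.41% higher and 6.45% lower), and 8 did not overlap with control, beside 42.2%. In TNF against control 4 were called, 3 higher and 1 lower, beside 19.0% (10.8% higher and 8.15% lower), so that the share of these probe sets (20%) was near the background. In TNF 10 did not overlap with control, beside 38.5%. The TNF count of 4 came to 1 without control replicate 2, without control replicate 3 or without TNF replicate 1. Under quantile normalization it came to 0 higher and 3 lower. The TNF shares over all probe sets under these settings are not given here, so these counts show only that the calls were unstable. Over all probe sets the CI count was 4342, and it was 2150 without CI replicate 1, 2602 without CI replicate 2 and 2873 without control replicate 2. The 3 comparisons share the control arrays, and the 8 genes were chosen with earlier results of these data known.

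Nr3c1 encodes the glucocorticoid receptor itself. Its intensity was 2432, 2243 and 2321 on the control arrays, 2512 and 2223 in CI, 2501, 2482 and 2444 in TNF, and 1691, 1668 and 1604 in DEX. All DEX arrays lay below every array of the other groups, the TNF arrays lay just above control, and the CI values spanned those of control. The group means were 2332 ± 94.7 (SD, n = 3) in control and 1654 ± 45.3 (n = 3) in DEX. The difference was -0.49 (SE 0.0583, limma adjusted p = 2.69e-05), which leaves 0.712 of the control level. Against TNF the DEX level was lower by a difference of -0.58, and against CI by -0.51 (limma adjusted p = 4.17e-06 and 3.6e-05). TNF and CI did not pass against control, with differences of 0.09 (95% interval -0.04 to 0.21) and 0.02 (-0.12 to 0.16).

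The receptor gene has 6 probe sets, and 4 of them were lower in DEX, with differences of -0.59 to -0.49. For 1460303_at, the next brightest, the control arrays read 2235, 2107 and 2067 and the DEX arrays 1552, 1391 and 1536. The call of 1421866_at was lost without control replicate 1 (limma adjusted p = 0.0692) or DEX replicate 2 (0.0567). The probe sets that did not pass were 1453860_s_at, at -0.25, and the dim 1431378_at, at -0.05, which read 49.0 to 57.0 in control and 47.1 to 58.4 in DEX. In TNF 1 of the 6 was called higher, 1457635_s_at, with a difference of 0.26 (limma adjusted p = 0.0365). Its arrays read 1202, 1051 and 1103 in TNF against 1002, 926.3 and 866.4 in control, without overlap. That call was lost under quantile normalization (0.0698) and without control replicate 2 (0.0985), control replicate 3 (0.139), TNF replicate 1 (0.141) or TNF replicate 3 (0.068). The TNF arrays of 1460303_at and of the dim 1431378_at also all lay above control, with differences of 0.10 and 0.14 that did not pass.

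Nr3c2 encodes the mineralocorticoid receptor, which binds glucocorticoids as well as aldosterone. Its probe set read 220.1, 230.0 and 220.6 in control, 156.6 and 146.8 in CI, 240.1, 225.7 and 243.4 in TNF, and 208.6, 223.5 and 218.5 in DEX. Both CI arrays lay far below all others, while control overlapped with TNF and with DEX. Insulin lowered Nr3c2 to 0.7 of the control level (difference -0.51, SE 0.0605, limma adjusted p = 0.00014). The difference of DEX from control was -0.04, with an interval of -0.16 to 0.08, and that of TNF was 0.08 (-0.04 to 0.19). The gene was higher than in CI by 0.59 in TNF and by 0.47 in DEX (limma adjusted p = 6.63e-06 and 3.65e-05), so CI was lowest. The DEX arrays all lay below the TNF arrays, but that difference of -0.12 did not pass (limma adjusted p = 0.123).

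Hsd11b1 encodes the enzyme that regenerates active glucocorticoid from its inert 11-keto form inside the cell; dexamethasone itself needs no such step. It was at 6843, 7887 and 8633 in control, 9972 and 10021 in CI, 5013, 5106 and 5138 in TNF, and 4693, 6138 and 4740 in DEX. The TNF and DEX arrays all lay below control and overlapped each other, and the CI arrays lay above control. The differences from control were -0.61 in TNF (SE 0.0984) and -0.59 in DEX (SE 0.0984), with limma adjusted p = 0.000657 and 0.000569. DEX and TNF differed by 0.02, with an interval of -0.19 to 0.23, which turned to -0.11 without DEX replicate 2. In CI the difference was 0.37 (SE 0.11, limma adjusted p = 0.0431), a call that was lost with a pseudocount of 1 (0.0517), with no filter on dim values (0.0616) and when any of 7 arrays was left out (0.0515 to 0.181). From CI the other treatments differed by more, at -0.97 for TNF and -0.95 for DEX (limma adjusted p = 1.56e-05 and 1.4e-05).

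Other genes of steroid metabolism and transport were read from a list of 14, of which 11 were tested. In DEX 2 rose and 1 fell, with a median difference of 0.05 against 0.02 over all genes, where 12.5% of 15622 genes were called higher and 12.7% lower. H6pd, whose product supplies the cofactor that Hsd11b1 uses, rose from 1429 ± 115 (SD, n = 3) in control to 2331 ± 129 (n = 3), a difference of 0.70 (SE 0.0968, limma adjusted p = 0.000109). Hsd11b2, the enzyme of the opposite direction, rose by 0.26 at a low level, and Hsd17b12, an enzyme of fatty acid elongation, fell by 0.52. In TNF 2 of the 11 rose and 1 fell, beside 12.6% and 9.54% of all genes: H6pd rose by 0.31, Abcb1b, a drug and steroid exporter, rose by 0.84, and Hsd17b12 fell by 0.32. Under quantile normalization 1 rose and 1 fell in TNF. In CI 2 rose and 0 fell (Hsd17b12 by 0.49 and Abcb1b by 0.31), beside 7.18% of all genes called higher and 7.76% lower.

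Fkbp5 encodes FKBP51, the co-chaperone that holds the receptor in a state of low hormone affinity. It read 1283, 1177 and 1183 in control, 1139 and 1150 in CI, 1520, 1372 and 1348 in TNF, and 8128, 7961 and 8045 in DEX. The DEX arrays stood far above all others, the TNF arrays were all above control, and the CI arrays were all below it. Dexamethasone raised it 6.56-fold, a difference of 2.71 (SE 0.0589, 95% interval 2.59 to 2.84, limma adjusted p = 1.14e-12). Among 15622 genes it ranked 10 in DEX when ordered from the highest rise to the deepest fall. The other tested probe set, 1448231_at, read 2946, 2622 and 2972 in DEX against 427.4 to 485.4 in control, with a difference of 2.61 (limma adjusted p = 5.58e-12).

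In TNF both Fkbp5 probe sets were called higher by a much smaller amount, 0.22 and 0.23 (limma adjusted p = 0.0205 and 0.0235). Both calls were lost under quantile normalization, with adjusted p = 0.0545 and 0.0788. They were also lost without control replicate 2 (0.0846 and 0.0812), control replicate 3 (0.0762 and 0.0994) or TNF replicate 1 (0.0934 and 0.0675), and that of 1448231_at without TNF replicate 2 (0.0872). In CI the difference was -0.08 (interval -0.22 to 0.06). The order of the group means was DEX, TNF, control and CI for the brightest probe set and DEX, TNF, CI and control for 1448231_at. The difference of CI from control passed in neither (limma adjusted p = 0.503 and 0.704), though the CI arrays of the brightest probe set all lay below control.

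Other receptor chaperones and immunophilins were read from a list of 15, of which 12 were tested. In DEX 3 rose and 1 fell, beside 12.5% and 12.7% of all genes, with a median difference of 0.02. With each array centred on its median 2 rose and 1 fell. Ppp5c, a phosphatase that binds the same site of Hsp90 as FKBP51, rose from 793.5 ± 43.7 (SD, n = 3) to 1320 ± 152 (n = 3), a difference of 0.72 (SE 0.075, limma adjusted p = 7.78e-06). Stub1, a ubiquitin ligase of the chaperone machinery, and Hspa8, a heat shock cognate protein, each rose by 0.20, and Bag1, a co-chaperone of Hsp70, fell by 0.36. In CI 5 of the 12 rose and 0 fell, beside 7.18% and 7.76% of all genes, with a median of 0.14. These were the Hsp90 activator Ahsa1 (0.52), the Hsp70 and Hsp90 adaptor Stip1 (0.42), Hspa4 (0.40), Dnaja1 (0.38) and Hsp90aa1 (0.28). In TNF Bag1 fell by 0.34 and Stub1 rose by 0.18, beside 9.54% of all genes lower and 12.6% higher, and Stub1 was not called under quantile normalization. Of 13 tested coregulators of the receptor, 2 rose and 1 fell in DEX, beside 12.5% and 12.7% of all genes, where Ep300 and Carm1 rose by 0.20 and 0.18 and Hdac2 fell by 0.18. With median centring 1 rose and 1 fell. In TNF Ep300 and Ncoa2 rose by 0.24 and 0.20 and Ncoa1 and Nrip1 fell by 0.24 and 0.21, beside 12.6% of all genes higher and 9.54% lower, and under quantile normalization 1 rose and 2 fell. In CI 0 rose and 1 fell (Nrip1, by 0.28), beside 7.18% and 7.76%.

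Tsc22d3 encodes GILZ, a leucine zipper protein that binds and restrains NF-κB and AP-1. It read 1132, 895.1 and 955.0 in control, 712.5 and 947.4 in CI, 865.8, 880.0 and 811.0 in TNF, and 4146, 3579 and 4276 in DEX. Every DEX array was above every other array by a wide margin, and the TNF arrays lay just below control. The rise in DEX was 3.98-fold, a difference of 1.99 (SE 0.106, 95% interval 1.77 to 2.22, limma adjusted p = 9.52e-09). The differences in TNF and CI were -0.21 (interval -0.44 to 0.02) and -0.26 (-0.52 to -0.01), and neither passed (limma adjusted p = 0.185 for both). Without CI replicate 2 the CI difference was -0.46 and passed (limma adjusted p = 0.0417). Under quantile normalization another probe set, 1425281_a_at, was called lower in TNF at -0.26 (limma adjusted p = 0.0247).

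The 4 probe sets of Tsc22d3 did not move alike. The probe set 1425281_a_at read 3345, 3075 and 3307 in DEX against 852.2, 689.1 and 713.6 in control, a difference of 2.09. The rise of 1425557_x_at was only 0.34, from 675.9 to 679.2 in control to 817.5, 915.3 and 862.2 in DEX (limma adjusted p = 0.000484), and these groups did not overlap. The ending marks probes that can bind other transcripts too. The dim 1444365_at read 98.3 to 104.3 in control and 94.8 to 119.5 in DEX, a difference of 0.05 that did not pass.

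Sgk1 encodes a kinase that curbs the ubiquitin ligase Nedd4l and so keeps the epithelial sodium channel at the membrane. It read 484.1, 511.4 and 368.7 in control, 432.3 and 380.5 in CI, 445.0, 418.6 and 420.6 in TNF, and 1869, 1889 and 1152 in DEX. The DEX arrays were above all others, DEX replicate 3 stood well below its 2 partners, and control, CI and TNF overlapped. The rise was 3.46-fold (difference 1.79, SE 0.158, 95% interval 1.45 to 2.13, limma adjusted p = 1.5e-06), and it was 1.65 to 2.02 over all fits with 1 array left out. The differences in CI and TNF were -0.15 (interval -0.53 to 0.23) and -0.07 (-0.41 to 0.27).

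Errfi1 encodes MIG6, an inhibitor of the EGF receptor kinases. Its values were 705.2, 629.3 and 518.4 in control, 1092 and 1035 in CI, 704.9, 678.9 and 573.4 in TNF, and 3572, 3501 and 2777 in DEX. DEX stood highest, CI lay between DEX and control without touching either, and TNF overlapped control. Dexamethasone raised Errfi1 5.21-fold (difference 2.38, SE 0.115, 95% interval 2.13 to 2.63, limma adjusted p = 3.7e-09), and insulin raised it 1.72-fold (difference 0.78, SE 0.129, limma adjusted p = 0.00141). The other probe set, 1419816_s_at, rose by 2.30 in DEX and by 0.60 in CI (limma adjusted p = 1.35e-09 and 0.00278). DEX exceeded CI by 1.60, and TNF lay below CI by a difference of -0.70 (limma adjusted p = 4.26e-07 and 0.00099). The difference of TNF from control was 0.08, with an interval of -0.17 to 0.33.

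Zbtb16 encodes PLZF, a zinc finger repressor of transcription. It read 533.8, 449.5 and 647.3 in control, 367.4 and 356.9 in CI, 454.1, 561.7 and 580.2 in TNF, and 1773, 1663 and 1766 in DEX. The DEX arrays were above and the CI arrays below every control array, and the TNF arrays lay within the control range. The rise in DEX was 3.16-fold (difference 1.66, SE 0.111, 95% interval 1.42 to 1.90, limma adjusted p = 8.81e-08). Insulin lowered the gene to 0.683 of control (difference -0.55, SE 0.124, limma adjusted p = 0.00995), a call that was lost without CI replicate 1 (0.0607) or CI replicate 2 (0.071).

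The probe set 1419874_x_at of Zbtb16, whose ending marks probes that can bind other transcripts too, gave a like picture. It read 1266, 1257 and 1292 in DEX, 253.1 and 201.8 in CI and 309.9, 333.2 and 433.3 in control. Its differences were 1.79 in DEX and -0.62 in CI (limma adjusted p = 7.31e-08 and 0.00713), and the CI call was lost without CI replicate 2 (0.102). The third probe set, 1427638_at, read 311.5, 333.7 and 328.8 in DEX against 219.5, 218.9 and 229.7 in control, a smaller rise of 0.51 (limma adjusted p = 9.6e-06). It was at 220.0 and 222.9 in CI, a difference of -0.01 that did not pass, so the fall under insulin was seen by 2 of the 3 probe sets. In TNF it differed from control by -0.16 and was called lower only under quantile normalization (limma adjusted p = 0.0377), with the filter at the median (0.0434) or without TNF replicate 2 (0.0463).

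**Figure D2:**
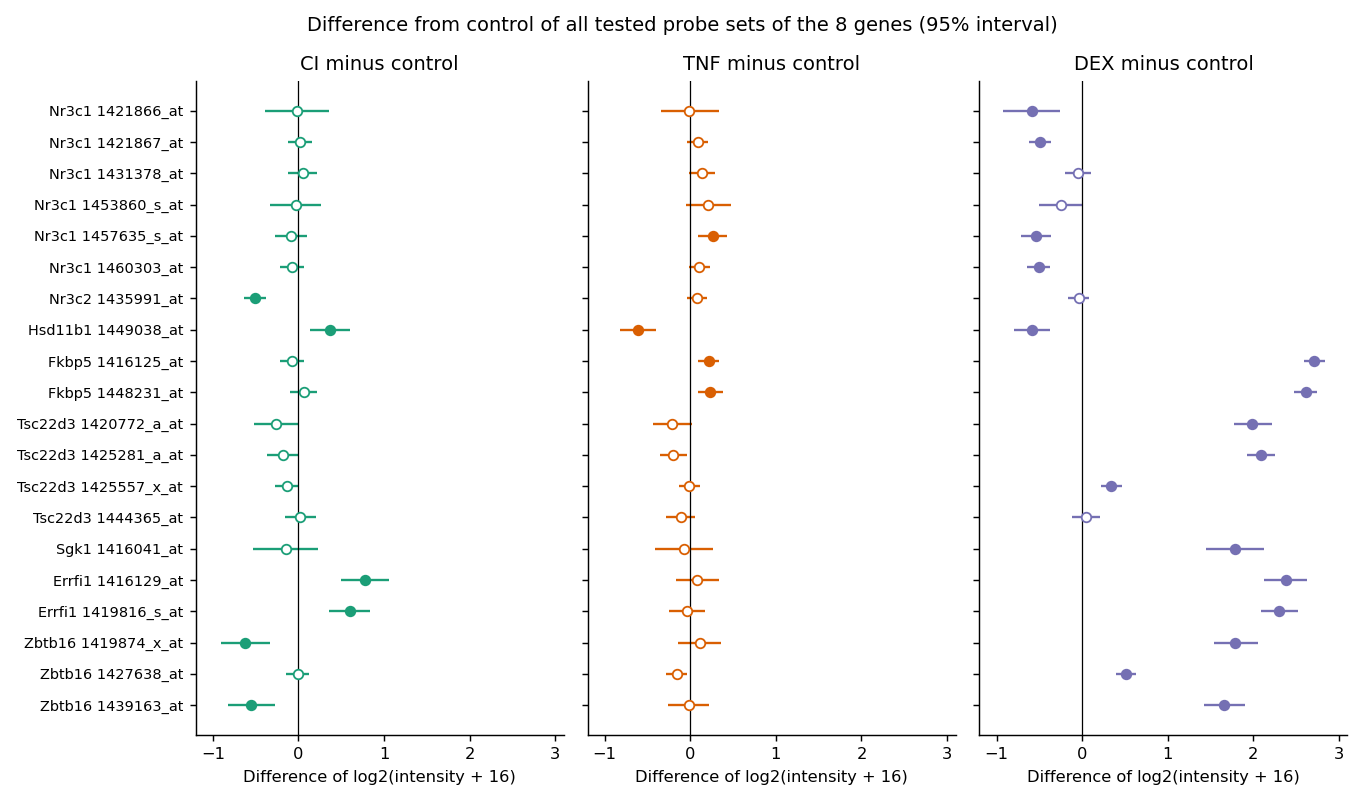
Difference from control on the log2(intensity + 16) scale (horizontal axis) with its 95% interval for the 20 tested probe sets of the 8 genes, in CI, TNF and DEX. Filled points passed at an adjusted p under 0.05 in limma: 6 in CI, 4 in TNF and 16 in DEX, where both Fkbp5 probe sets lie furthest to the right at 2.71 and 2.61.

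The treatments were also compared with each other. In DEX against TNF 16 of the 20 probe sets were called, 11 higher and 5 lower, beside 29.3% of all probe sets (14.6% higher and 14.8% lower), and 18 did not overlap, beside 43.1%. The 5 induced genes stood above TNF by 2.50 (Fkbp5), 2.30 (Errfi1), 2.21 (Tsc22d3), 1.86 (Sgk1) and 1.68 (Zbtb16). In DEX against CI 17 were called, 12 higher and 5 lower, beside 28.5% (14.2% higher and 14.3% lower), and 18 did not overlap, beside 49.2%. There Fkbp5 differed by 2.80, Tsc22d3 by 2.26, Zbtb16 by 2.21 and Sgk1 by 1.94. In TNF against CI 8 were called, 5 higher and 3 lower, beside 30.0% (15.5% higher and 14.5% lower), and 13 did not overlap, beside 57.2%. Hsd11b1 and Errfi1 were lower in TNF than in CI, and Nr3c2, Zbtb16 (0.53) and Fkbp5 (0.30) were higher.

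Genes known to be raised by glucocorticoids in some tissues, not necessarily in adipocytes, were read from a list of 35 that holds none of the 8. That list was chosen with earlier results of these data known, so the shares called are no independent test. In DEX 27 of the 35 rose and 2 fell, beside 12.5% and 12.7% of all genes. The median difference was 0.67 against 0.02 over all genes. With median centring 24 rose and 2 fell, and with quantile normalization 26 and 2. Fam107a, an actin-binding protein gene, rose from 112.6 ± 17 (SD, n = 3) to 5941 ± 326 (n = 3), a difference of 5.54 (SE 0.108). The receptor tyrosine kinase gene Mertk rose by 2.57, the angiotensinogen gene Agt by 1.59 and the kinase gene Map3k6 by 1.27 (limma adjusted p from 3.99e-13 for Fam107a to 3.45e-09 for Map3k6). The genes that fell were Pck1, for an enzyme of gluconeogenesis and glyceroneogenesis, by 2.31, and Klf15, for a transcription factor, by 0.38; they were named for being the only ones that fell. In TNF 6 of the 35 rose and 7 fell, beside 12.6% and 9.54% of all genes, with a median of 0.01. In CI 6 rose and 9 fell, beside 7.18% and 7.76% of all genes, with a median of -0.01, so genes called in opposite directions lay on both sides of a median near 0. In TNF Nfkbia, the inhibitor of NF-κB, and the metallothionein gene Mt2 rose by 0.75 and 1.10, and the lipid phosphatase gene Lpin1 and Agt fell by 0.78 and 0.66. In CI the sulfotransferase gene Sult1a1 and Agt fell by 1.10 and 0.57, and the phosphatase gene Dusp1 and the phospholipid-binding Anxa1 rose by 1.16 and 0.41.

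Inflammatory genes that glucocorticoids are known to lower were read from a list of 20, of which 15 were tested. That list, too, was chosen with earlier results of these data known. In DEX 0 rose, 6 fell and 9 did not pass, with a median difference of -0.23, beside 12.5% of all genes higher and 12.7% lower. The chemokine gene Cxcl10 fell from 1376 ± 211 (SD, n = 3) to 169.7 ± 14.2 (n = 3), a difference of -2.90 (SE 0.135, limma adjusted p = 2.69e-09). Cxcl5, the protease gene Mmp3 and the adhesion molecule gene Vcam1 fell by 2.75, 1.16 and 0.46. In TNF 11 of the 15 rose and 0 fell, with a median of 1.16, beside 12.6% and 9.54% of all genes. Those with the smallest adjusted p were Vcam1 (2.40) and the chemokine genes Ccl5 (3.58), Ccl2 (2.82) and Ccl7 (2.10), and Cxcl5 rose by 2.81. In CI 2 rose, Cxcl10 by 1.21 and Il6 by 1.11, and Vcam1 fell by 0.29, beside 7.18% and 7.76% of all genes. In DEX against TNF 0 were higher and 11 lower, with a median of -2.32, beside 16.2% of all genes higher and 17.1% lower.

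**Figure D3:**
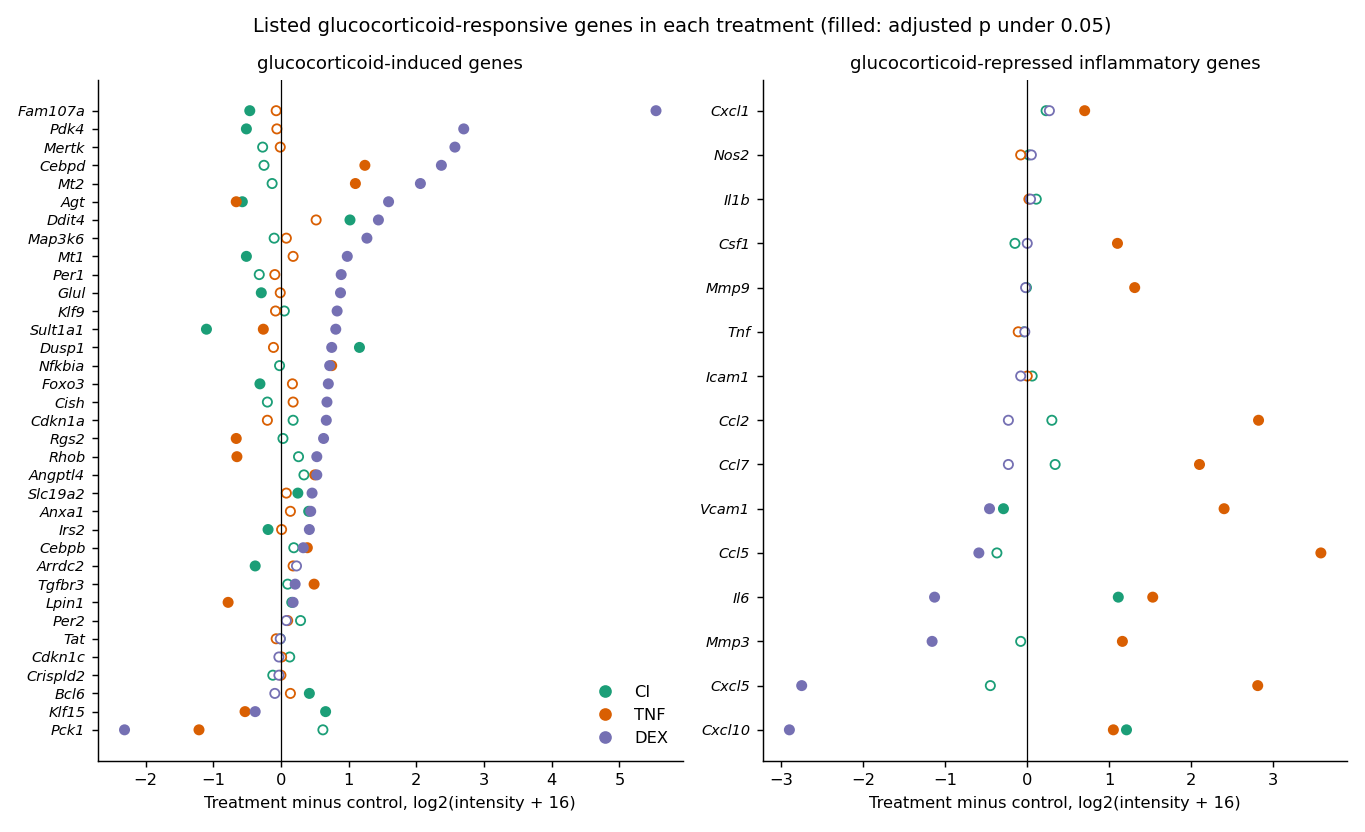
Difference of each treatment from control on the log2(intensity + 16) scale (horizontal axis) for 35 glucocorticoid-induced genes (left) and 15 tested inflammatory genes (right), with 1 point per gene and treatment, filled where the limma adjusted p was under 0.05. On the left the DEX points run from -2.31 (Pck1) to 5.54 (Fam107a) and 27 of them are called higher, and on the right 11 TNF points are called higher and 6 DEX points lower.

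The genes whose pattern came nearest to each induced gene were found by the root mean square of the log2 difference over the 8 treated arrays, each set against the gene's own control mean. For Fkbp5 they were Mertk (0.23), Pdk4 (0.32) and Map7d2 (0.38). For Tsc22d3 they were Ccdc71l (0.21), Fam214a (0.24) and Trp53inp1 (0.29), and for Sgk1 Ccdc71l (0.20), Slc35e4 (0.21) and Pld1 (0.24). For Zbtb16 they were Ptgis (0.19), Fam214a (0.23) and Trp53inp1 (0.25). The genes nearest to Errfi1 lay further off, Map7d2 at 0.33, Fkbp5 at 0.50 and Ccdc71l at 0.53. Map7d2 differed from control by 0.54 in CI and 2.67 in DEX, beside 0.78 and 2.38 for Errfi1.

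Adipocyte markers differed widely in level. Adipoq, the adiponectin gene, read 22828 ± 510 (SD, n = 3) in control. The leptin gene Lep was near the filter on dim values (51.8). It read 70.3 ± 4.78 (n = 2) in CI, 53.95 ± 1.86 (n = 3) in TNF and 58.43 ± 0.581 (n = 3) in DEX. Sums of intensity weigh bright genes such as Adipoq most. Of 10 adipocyte markers 9 had a probe set and were tested, and their summed intensity was 94387 to 96825 in control, 95224 to 97295 in CI, 80185 to 82703 in TNF and 87917 to 94407 in DEX. Of these 9, 1 was higher and 0 lower in CI, 0 were higher and 4 lower in TNF, and 1 was higher and 4 lower in DEX. Under quantile normalization 6 were lower in TNF, and under median centring 0 were higher in CI. Of 10 preadipocyte and fibroblast markers 9 had a probe set, and their sum was 42945 to 49779 in control, 35705 to 37649 in CI, 50395 to 52323 in TNF and 26993 to 31520 in DEX. Of the 8 tested, 0 were higher and 5 lower in CI, 4 were higher and 0 lower in TNF (4 and 1 under quantile normalization), and 1 was higher and 5 lower in DEX. The sum of 10 macrophage and leukocyte markers was 4673 to 4850 in control, 3910 to 4228 in CI, 6085 to 6551 in TNF and 3322 to 3819 in DEX. Of the 8 tested, 1 was higher and 2 lower in CI, 3 were higher and 0 lower in TNF, and 1 was higher and 3 lower in DEX. The pan-leukocyte gene Ptprc and the integrin gene Itgam were under the filter, at means of 24.9 and 49.5, while in control Lyz2 read 2325 ± 86.8, Mpeg1 874.7 ± 69.7 and Csf1r 445.3 ± 27.5 (SD, n = 3). Those higher in TNF were Cd14 (1.48), Cd53 (0.61) and Lyz2 (0.34), and in DEX Cd14 was higher (0.90) and Mpeg1, Itgb2 and Lyz2 lower (-1.67, -0.96 and -0.62). Of all genes, 7.18% were higher and 7.76% lower in CI, 12.6% and 9.54% in TNF, and 12.5% and 12.7% in DEX. The part of these shifts in the values of the 8 genes was not tested, and in such bulk RNA fewer cells of a type and less RNA per cell cannot be told apart.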

How the data were processed

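Per the labels' protocols, 3 µg of total RNA per sample was turned into biotin-labelled cRNA for hybridisation to Affymetrix arrays. The values deposited by the authors are linear intensities of 45101 probe sets in 11 columns, each matched to a sample by its heading, and 0 value columns were of no sample. The sources used here do not say how they were summarised and normalized, and no normalization was added, since the array medians were 124.5 to 129.5. Groups were taken from the sample titles. The members and gene lists were chosen with earlier results of these data known.

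In the platform annotation 34945 probe sets had 1 symbol, 932 had several and 9160 had none listed. A match by gene identifier was found for 34741 of the 34945, and it changed 0 symbols. The 64 control probe sets of Affymetrix were not tested. Deposited intensities were transformed to log2(intensity + 16), which understates the change of dim genes. Probe sets with a mean at or above the 25th percentile (51.8) were fitted together by limma 3.58.1 (R 4.3.3; lmFit, contrasts.fit and eBayes), with a mean per group, 7 residual and 6.54 prior degrees of freedom, two-sided tests and Benjamini-Hochberg adjustment over all 33778. Gene-level counts use each gene's brightest probe set in that fit. On simulated data for DEX against control with 33778 probe sets, 90% of 100 changes of 0.5 and 99% of 100 changes of 1 (log2) were recovered. The simulated noise was normal and independent between probe sets, and only 200 of them were changed. These rates check the fit and need not hold for the real arrays.

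The text names all 8 genes with every probe set; up to 4 genes per list and comparison by smallest adjusted p; and the 3 nearest genes for each member that changed by at least 1 (log2) in DEX. Exceptions, chosen after their values were seen, are Hsp90aa1, Pck1, Klf15, Cxcl5 in TNF, and the markers Adipoq, Lep, Ptprc, Itgam and Csf1r and the control levels of Lyz2 and Mpeg1. Alternatives were another pseudocount, filter, normalization, level of fit, set of arrays, a replicate block, and each array left out in turn. Sequences are from RefSeq (GRCm38.p6). No protein sequence was used here.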

Additional observations from a re-analysis of the deposited data

How the results depend on the processing

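The 7 calls among the 8 genes in DEX against control kept direction and call under every alternative tried, with Fkbp5 at 2.69 to 2.75, Errfi1 at 2.26 to 2.50, Tsc22d3 at 1.92 to 2.09, Sgk1 at 1.65 to 2.02, Zbtb16 at 1.53 to 1.79, Nr3c1 at -0.52 to -0.46 and Hsd11b1 at -0.72 to -0.51 when 1 array was left out. With 1 probe set per gene, fewer features were tested by construction: 2696 genes were called in CI, 3931 in TNF, 4316 in DEX, 5645 in DEX against TNF, 5311 in DEX against CI and 5656 in TNF against CI. The members called were 4 in CI, 2 in TNF, 7 in DEX, 6 in DEX against TNF, 8 in DEX against CI and 5 in TNF against CI. With 1 array left out, the probe sets called in CI ran from 2150 (without CI replicate 1) to 4918, with 2873 without control replicate 2 and 2602 without CI replicate 2, and the member probe sets called in TNF from 1 (with either of control replicates 2 and 3, or TNF replicate 1, left out) to 4. Under quantile normalization the member probe sets called in TNF were 0 higher and 3 lower. For these TNF counts the share over all probe sets under the same setting is not given here. Differences that changed sign passed under no setting. With 1 array left out they ran, in CI, from -0.07 (without CI replicate 1) to 0.11 for Nr3c1; in TNF from -0.21 to 0.02 (without control replicate 2) for Sgk1, from -0.03 (without control replicate 3) to 0.18 for Errfi1 and from -0.15 to 0.11 (without control replicate 3) for Zbtb16; in DEX against TNF from -0.11 (without DEX replicate 2) to 0.08 for Hsd11b1; and in TNF against CI from -0.01 to 0.16 for Sgk1 and from -0.02 to 0.15 for Nr3c1 (the lowest without CI replicate 2) and from -0.15 (without CI replicate 1) to 0.25 for Tsc22d3. Hsd11b1 in DEX against TNF was at -0.01 with median centring, and Tsc22d3 in TNF against CI at -0.01 with quantile normalization. The cause was not tested. Of the results with 1 array left out, 505 kept direction and call, 12 lost the call, 1 gained it and 10 changed sign, and of those under other settings 427 kept both.

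Whether the replicate numbers in the titles pair the arrays could not be told. Deviations of same-numbered arrays from their group means correlated at -0.31 to 0.36 and of others at -0.38 to 0.31. With so few arrays per group the deviations within a group are tied to each other, so these ranges cannot exclude pairing. With the number as a replicate block 4214, 6265 and 7522 probe sets were called in CI, TNF and DEX against control, and 6, 4 and 16 member probe sets.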

Other observations

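The families of 3 of the induced genes were read from lists, beside all genes, of which 12.5% were higher and 12.7% lower in DEX, 12.6% and 9.54% in TNF, and 7.18% and 7.76% in CI. The TSC22 family, read through Tsc22d1, Tsc22d2 and Tsc22d4, had 0 members that rose and 1 that fell in DEX, where Tsc22d1 went from 7713 ± 121 (SD, n = 3) to 5847 ± 195 (n = 3), a difference of -0.40 (limma adjusted p = 0.000107), opposite to Tsc22d3. In CI Tsc22d1 was called higher by 0.21 (limma adjusted p = 0.0409), a call that was absent under median centring, and in TNF 0 of 3 passed, with 1 higher under median centring. Of 13 tested genes of the SGK kinases and the sodium channel pathway, 1 rose and 2 fell in DEX. The sodium pump subunit gene Atp1b1 fell by 1.01, the ubiquitin ligase gene Nedd4l fell by 0.46 and the kinase gene Wnk4 rose by 0.55, and with median centring 3 fell. Nedd4l stood at 682.2 ± 25.9 (SD, n = 3) in control, 493.3 ± 29.2 (n = 3) in DEX and 1108 ± 3.47 (n = 2) in CI, so it fell under dexamethasone and rose under insulin, by 0.69. In CI 2 rose and 1 fell, the others being Pdpk1 (0.27) and Atp1b1 (-0.46). In TNF 2 rose and 1 fell: Rictor by 0.47 and Ndrg1 by 0.48 rose, and Wnk4 fell by 1.05.

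Of 8 tested EGF receptors and ligands, 1 rose and 1 fell in DEX: Erbb2 rose by 0.26 and the ligand gene Btc fell by 0.36, while Egfr differed by 0.08 and did not pass. In TNF 4 rose and 0 fell, the ligand genes Ereg (0.97), Btc (0.33) and Hbegf (0.33) and the receptor gene Erbb2 (0.35), and with quantile normalization 4 rose and 1 fell. In CI 0 rose and 1 fell, Erbb2 by 0.26. Of 3 tested related steroid receptors, 0 were called in DEX and in CI in limma, and Esr1, at a low level, fell by 0.22 in TNF. None of the 35 promoter windows found for 30 genes of the glucocorticoid-induced list held the paired element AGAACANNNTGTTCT (0 windows). Over all genes 3 of 32851 windows held it (0.00913%), so a count of 0 could hardly come out otherwise. It tells nothing of looser matches or of bases outside the windows.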
